A study of Homo sapiens with 18 samples.

Results

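Collagen and laminin genes were read across all 6 groups of an RNA-seq experiment in NCI-H211, a cell line from small cell lung cancer that resembles tuft cells and depends on the transcription factor POU2F3. Members were the genes whose symbol named a collagen chain (COL, a number, A, a number) or a laminin chain (LAMA, LAMB or LAMC and a digit), with COL15A1 left out. They numbered 55 of the 19751 genes in the table, 43 collagens and 12 laminins. Changes were tested for 33 members whose TPM averaged 1 or more across the 18 libraries, 23 collagens and 10 laminins, among 13073 genes that met the same limit. TPM, a measure of transcript abundance, scales each gene by its length and each library to the same total, so levels of different genes can be set side by side.

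All cells were NCI-H211 that carried Cas9. Stable lines expressed a CRISPR-resistant L191A mutant POU2F3 cDNA, a CRISPR-resistant wild-type (WT) POU2F3 cDNA, or an empty vector. Each line was infected with a lentivirus carrying sgPOU2F3, a guide against the endogenous gene, or sgRosa, the control guide, and RNA was taken on day 5. The groups were thus L191A sgPOU2F3, L191A sgRosa, WT sgPOU2F3, WT sgRosa, empty-vector sgPOU2F3 and empty-vector sgRosa, with 3 libraries each. The 3 libraries of a group were separate infections of 1 stable line, and whether a line was a clone or a pool is not given in the sources used here.

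Collagens are triple-helical proteins of the extracellular matrix: fibrillar collagens form fibers, type IV collagens form the network of basement membranes, and the FACIT group (collagens with interrupted helices) binds to fiber surfaces. Laminins are trimers of an alpha, a beta and a gamma chain that lie against the cell surface in basement membranes. In epithelia, laminin-332 and type VII collagen anchor cells to the layer beneath, while laminin-511 (LAMA5, LAMB1 and LAMC1) is the common trimer of mature basement membranes.

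In empty-vector cells POU2F3 had 281 ± 33.1 TPM under sgPOU2F3 and 729 ± 108 TPM under sgRosa (SD, n = 3 each). In the other lines the reads of the cDNA and of the endogenous gene add up, so POU2F3 checks nothing there. All 9 tuft markers averaged at least 1 TPM, with a sum of 597 to 3489 TPM a library, 1097 to 1348 TPM in empty-vector sgPOU2F3 cells and 2581 to 3180 TPM in empty-vector sgRosa cells. The 9 include POU2F3 itself, so these sums hold the target of the guide and the reads of the cDNAs. Of 7 fibroblast markers, DCN, PDGFRA and THY1 averaged at least 1 TPM. The 7 summed to 1.65 to 2.47 TPM in empty-vector sgPOU2F3 libraries and 6.35 to 7.89 TPM in empty-vector sgRosa libraries, and reached 17.2 TPM at most, in WT sgRosa cells. PDGFRB, FAP, DPT and TCF21 were below that limit, as were all 4 endothelial markers. The part of these shifts in the results below was not tested. RNA from whole cultures cannot tell fewer cells of a type from less RNA per cell.

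A pair of libraries stood apart. L191A sgRosa replicate 1 had a median of 7.05 TPM over the tested genes, and WT sgPOU2F3 replicate 1 had 12.7 TPM, against 18.6 to 26.4 TPM in the other 16. In both, levels declined with transcript length: set against its group partners, log2 TPM changed by -0.578 and by -0.183 per doubling of transcript length in these 2 libraries. The tested members are long, with a median longest transcript of 6494 bases, against 3633 bases for all tested genes. The 55 members summed to 84.8 TPM in L191A sgRosa replicate 1 and to 217 TPM in WT sgPOU2F3 replicate 1. In the other libraries the sum was 377 to 922 TPM, highest in empty-vector sgPOU2F3 replicate 2, whose length slope was 0.15. Results are therefore given over 18 libraries, over the 16 others, and over the 16 with each library's length trend removed. Removing this trend also takes out a library's shift common to all lengths, so length and overall scaling are not separated in that setting.

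**Figure D1:**
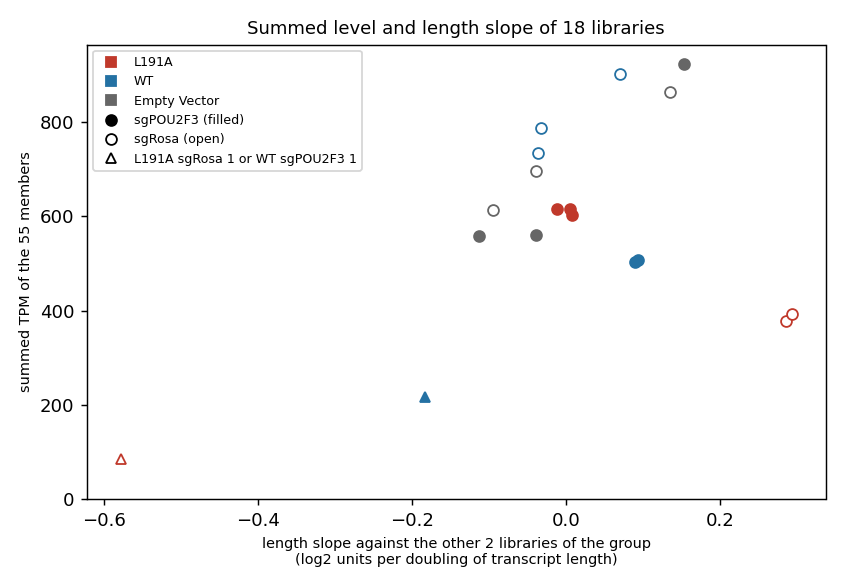
Summed TPM of the 55 members (vertical axis) against each library's length slope relative to the other 2 libraries of its group (horizontal axis, log2 units per doubling of transcript length), 1 point per library, colored by line and filled for sgPOU2F3. L191A sgRosa replicate 1 and WT sgPOU2F3 replicate 1 (triangles) lie at the low left, with sums of 84.8 and 217 TPM.

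The question put by the guide comparison is what loss of endogenous POU2F3 does to these genes with no cDNA, with the WT cDNA or with the L191A cDNA. A gene was called at a limma adjusted p under 0.05, and log2 changes are differences of log2(TPM + 1), sgPOU2F3 minus sgRosa, a scale that understates changes of genes at low TPM. In L191A cells 7 of the 33 members rose and 0 fell, where 5.43% of all tested genes rose and 0.566% fell. The count was 11 higher and 1 lower over 16 libraries (all genes, 7.37% and 3.34%) and 13 higher and 2 lower with the length trend also removed (10.3% and 7.25%).

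In WT cells 0 rose and 7 fell, where 1.57% of all genes rose and 5.26% fell. This became 2 higher and 17 lower over 16 libraries (5.7% and 30.4%), and 7 higher and 4 lower with the length trend removed (15% and 10.4%), so the balance of directions in WT cells changed when the trend was removed. In empty-vector cells 8 rose and 3 fell, where 7.95% of all genes rose and 9.52% fell. There the counts were 14 higher and 11 lower over 16 libraries (19.1% and 32.7%), and 18 higher and 9 lower with the length trend removed (29.4% and 28.4%).

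The median log2 change of the tested members was 0.61 in L191A cells, -0.77 in WT cells and 0.09 in empty-vector cells. Over all tested genes it was 0.33, -0.42 and -0.13 in the same lines. Over 16 libraries the members' medians were 0.23, -0.48 and 0.09 (all genes, 0.0092, -0.26 and -0.13). With the length trend also removed they were 0.19, -0.11 and 0.31 (all genes, -0.0088, -0.0098 and 0.0045). Leaving out 1 library moved the counts most in WT cells: limma called 0 members without WT sgRosa replicate 1, 1 without WT sgPOU2F3 replicate 1, 2 without WT sgRosa replicate 2 or 3, 3 without WT sgPOU2F3 replicate 2, and 14 without WT sgPOU2F3 replicate 3. Over all tested genes, 52 rose and 58 fell without WT sgRosa replicate 1, and 348 and 2512 without WT sgPOU2F3 replicate 3. In L191A cells 13 members were called without L191A sgRosa replicate 2 and 12 without replicate 3, and 5 or 6 without any other. There 1324 of all tested genes rose and 98 fell without L191A sgRosa replicate 2, and 441 and 38 without L191A sgPOU2F3 replicate 1. In empty-vector cells the count of members stayed at 9 or 10. Of the called changes, those of 9 members in empty-vector cells, of 2 in L191A cells and of 0 in WT cells passed under all 14 alternatives run. Those in empty-vector cells included LAMB3, COL1A1, COL3A1, COL7A1, COL12A1 and COL24A1, which rose, and COL9A1 and COL28A1, which fell. The 2 in L191A cells were LAMB3 and COL24A1, and a fit of the L191A libraries alone called no other of the 7. Where a call is said below to have ended, the settings named are not always all those that ended it.

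**Figure D2:**
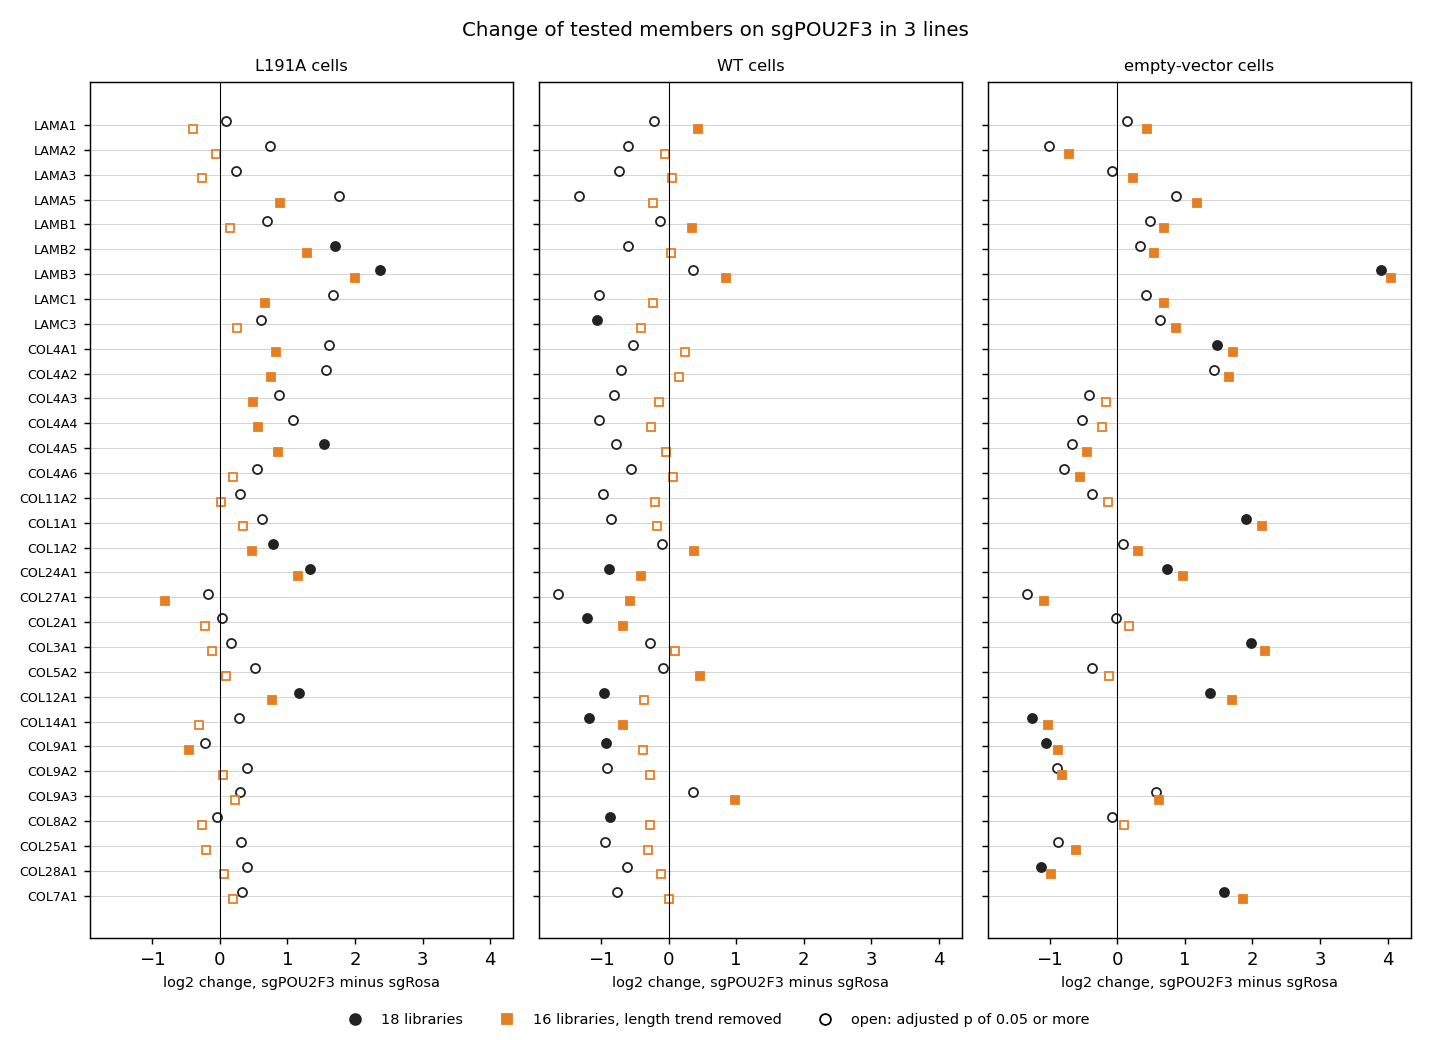
Log2 change on sgPOU2F3 (sgPOU2F3 minus sgRosa, horizontal axis) of 32 tested members in L191A, WT and empty-vector cells, over 18 libraries (circles) and over 16 libraries with the length trend removed (squares), filled where the limma adjusted p was under 0.05. LAMB3 lies far right in the L191A and empty-vector panels, at 2.37 and 3.90, while in WT cells it lies at 0.36.

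LAMB3, the beta chain of laminin-332, rose in 2 of the 3 lines. The gene (chromosome 1, 209614870 to 209652466, minus strand, GRCh38) had 24.0, 26.4 and 24.7 TPM in L191A sgPOU2F3 libraries, against 2.12, 5.31 and 5.43 TPM in L191A sgRosa libraries. It had 2.93, 5.28 and 4.71 TPM in WT sgPOU2F3 libraries and 3.38, 3.23 and 2.59 TPM in WT sgRosa libraries. It had 41.1, 57.7 and 39.5 TPM in empty-vector sgPOU2F3 libraries, against 1.96, 2.01 and 2.39 TPM in empty-vector sgRosa libraries. The guide groups were far apart in L191A and empty-vector cells and overlapped in WT cells. The log2 change was 2.37 ± 0.26 (SE) in L191A cells (limma adjusted p = 1.87e-05), 0.36 in WT cells, which did not pass, and 3.90 ± 0.26 in empty-vector cells (limma adjusted p = 3.18e-08). Over 16 libraries with the length trend removed the WT change was 0.85 and passed the test, while those in L191A and empty-vector cells were 2.00 and 4.05.

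The differences between lines were tested directly. The response of LAMB3 was larger in L191A than in WT cells, by 2.01 ± 0.37 log2 units (limma adjusted p = 0.00468), and smaller in WT than in empty-vector cells, with a difference of -3.54 ± 0.37 (limma adjusted p = 1.63e-05), and both passed under all 20 alternatives. For LAMB3 the L191A response was also smaller than the empty-vector response, with a difference of -1.52 ± 0.37 (limma adjusted p = 0.0265). That last call ended when L191A sgPOU2F3 replicate 1, 2 or 3, empty-vector sgRosa replicate 1, 2 or 3, or empty-vector sgPOU2F3 replicate 1 or 2 was left out (limma adjusted p of 0.0551 to 0.0674), and over 16 libraries it was -1.87 (limma adjusted p = 2.2e-05). These differences share the libraries of each line.

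LAMA3, the alpha chain of laminin-332, averaged 2.27 ± 0.19 TPM in L191A sgPOU2F3 cells and 2.03 ± 1.34 TPM in L191A sgRosa cells, 2.36 ± 1.11 TPM in WT sgPOU2F3 cells and 4.39 ± 0.79 TPM in WT sgRosa cells, and 1.96 ± 0.52 TPM in empty-vector sgPOU2F3 cells and 2.14 ± 0.64 TPM in empty-vector sgRosa cells (SD, n = 3 each). Its changes of 0.23, -0.73 and -0.08 in these lines did not pass the test (limma adjusted p of 0.619, 0.115 and 0.905).

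LAMB3 passed the test and LAMA3 did not, so the stretches around their starts are shown, from 250 bases before to 50 after the start, from RefSeq on GRCh38.p14. The table used held such a stretch for 40 of the 55 members. In capitals are matches to the AP-1 motif TGANTCA on either strand, which 7.76% of 27305 promoters in the table held. LAMA3 had 2 matches, which begin 125 and 69 bases before the start, and LAMB3 had 0. LAMA3 was 1 of 23 tested members with a stretch that held a match, and the start used for it lies within the annotated gene (chromosome 18, 23689443 to 23956222), downstream of its outermost start.
LAMB3, chr1:209652376-209652675, minus strand: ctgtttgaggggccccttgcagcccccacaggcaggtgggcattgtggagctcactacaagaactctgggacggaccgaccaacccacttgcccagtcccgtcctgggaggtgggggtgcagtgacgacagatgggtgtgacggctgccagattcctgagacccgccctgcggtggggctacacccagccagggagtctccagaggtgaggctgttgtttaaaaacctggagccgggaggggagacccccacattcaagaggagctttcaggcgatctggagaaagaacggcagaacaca
LAMA3, chr18:23872770-23873069, plus strand: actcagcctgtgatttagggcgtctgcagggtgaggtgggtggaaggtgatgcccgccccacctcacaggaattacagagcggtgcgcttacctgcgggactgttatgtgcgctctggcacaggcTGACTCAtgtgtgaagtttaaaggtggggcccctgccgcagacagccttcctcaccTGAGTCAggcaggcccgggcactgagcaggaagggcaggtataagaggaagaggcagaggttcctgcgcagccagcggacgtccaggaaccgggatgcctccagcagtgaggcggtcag

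The same stretches were searched for the TEAD motif GGAATG and for the octamer that POU factors bind, both strands each. GGAATG stood in 2 of the 23 tested members (8.7%) and in 14% of all promoters in the table. The octamer stood in 0 of the 23 and in 1.8% of all. A missing match says only that these letters are not in this window.

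LAMB3 had a ratio to LAMB1 of 0.756 ± 0.048 in L191A sgPOU2F3 cells and 0.199 ± 0.026 in L191A sgRosa cells, 0.271 ± 0.040 in WT sgPOU2F3 cells and 0.179 ± 0.029 in WT sgRosa cells, and 3.24 ± 0.35 in empty-vector sgPOU2F3 cells and 0.216 ± 0.014 in empty-vector sgRosa cells (SD, n = 3 each). Ratios within a library do not move with the scaling of that library. LAMB3 exceeded LAMB1 in no library outside the empty-vector sgPOU2F3 group, where the ratio was 2.88 to 3.57.

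**Figure D3:**
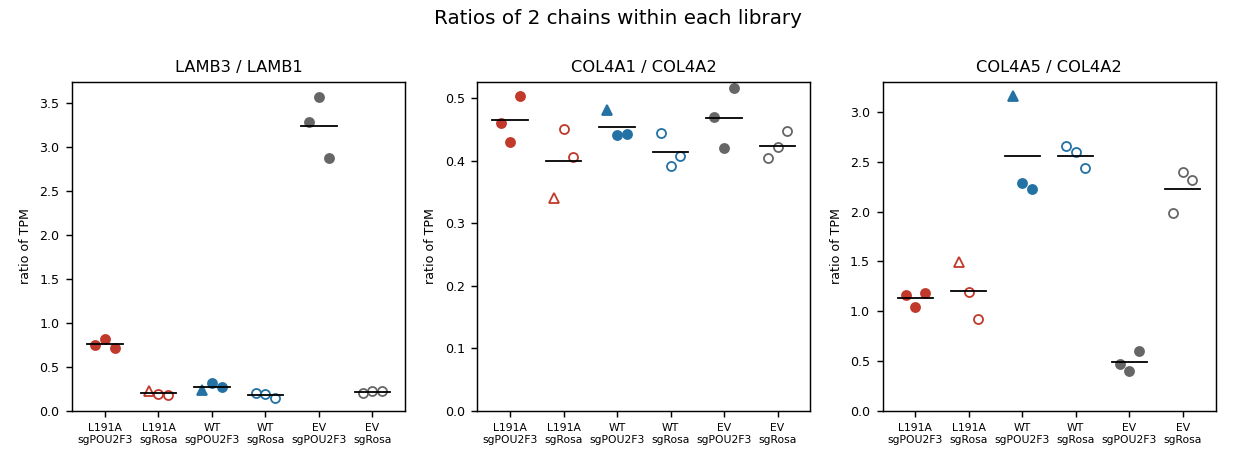
Ratio of the TPM of 2 chains within each library (vertical axes, starting at 0) for LAMB3 over LAMB1, COL4A1 over COL4A2 and COL4A5 over COL4A2, by group (sgPOU2F3 filled, sgRosa open; triangles, L191A sgRosa replicate 1 and WT sgPOU2F3 replicate 1; bars, means of 3 libraries). COL4A1 over COL4A2 stays between 0.340 and 0.517 in all 18 libraries, while LAMB3 over LAMB1 averages 3.24 in empty-vector sgPOU2F3 cells and 0.216 in empty-vector sgRosa cells.

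LAMB2, the beta chain of laminin-521, also rose in L191A cells. It had 14.5, 14.4 and 15.3 TPM in L191A sgPOU2F3 libraries, against 1.83, 5.93 and 4.74 TPM in L191A sgRosa libraries. It had 7.14, 13.9 and 13.6 TPM in WT sgPOU2F3 libraries and 17.1, 16.8 and 18.2 TPM in WT sgRosa libraries. It had 9.33, 14.3 and 10.3 TPM in empty-vector sgPOU2F3 libraries and 8.09, 7.04 and 11.4 TPM in empty-vector sgRosa libraries. L191A sgRosa libraries were the lowest, and the guide groups overlapped only in empty-vector cells. The rise in L191A cells was 1.70 ± 0.31 (limma adjusted p = 0.00225), 1.32 over 16 libraries, and did not pass in a fit of the L191A libraries alone (limma adjusted p = 0.164). It was larger than the change in WT cells by 2.30 ± 0.44 (limma adjusted p = 0.00555), under all 20 alternatives.

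The chains of laminin-511 and the remaining laminins showed smaller or less certain changes. LAMC1, the gamma chain shared by most laminins, was the highest laminin in every group. It averaged 172 ± 5 TPM in L191A sgPOU2F3 cells and 74.2 ± 53.0 TPM in L191A sgRosa cells, 81.7 ± 32.0 TPM in WT sgPOU2F3 cells and 158 ± 20 TPM in WT sgRosa cells, and 155 ± 44 TPM in empty-vector sgPOU2F3 cells and 113 ± 24 TPM in empty-vector sgRosa cells (SD, n = 3 each). LAMA5, its alpha partner, averaged 64.2 ± 1.5 TPM in L191A sgPOU2F3 cells and 23.8 ± 16.3 TPM in L191A sgRosa cells, 27.6 ± 15.7 TPM in WT sgPOU2F3 cells and 61.1 ± 9.0 TPM in WT sgRosa cells, and 54.7 ± 28.6 TPM in empty-vector sgPOU2F3 cells and 27.9 ± 7.0 TPM in empty-vector sgRosa cells. Over 18 libraries neither passed the test in any line. Over the 16 libraries with the length trend removed, LAMA5 rose by 0.89 in L191A cells and by 1.18 in empty-vector cells, and LAMC1 by 0.67 and 0.69 (limma adjusted p of 0.000905, 5.04e-06, 2.59e-05 and 1.8e-06), while both missed it in WT cells (0.305 and 0.0623). LAMA1, LAMA2 and LAMB1 did not pass in any line over 18 libraries, and LAMC3 fell in WT cells by 1.05 (limma adjusted p = 0.0411). The LAMC3 call ended without WT sgPOU2F3 replicate 1 or 2 or any 1 WT sgRosa library (adjusted p of 0.051 to 0.237), and over 16 libraries with the length trend removed (limma adjusted p = 0.0522).

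**Figure D4:**
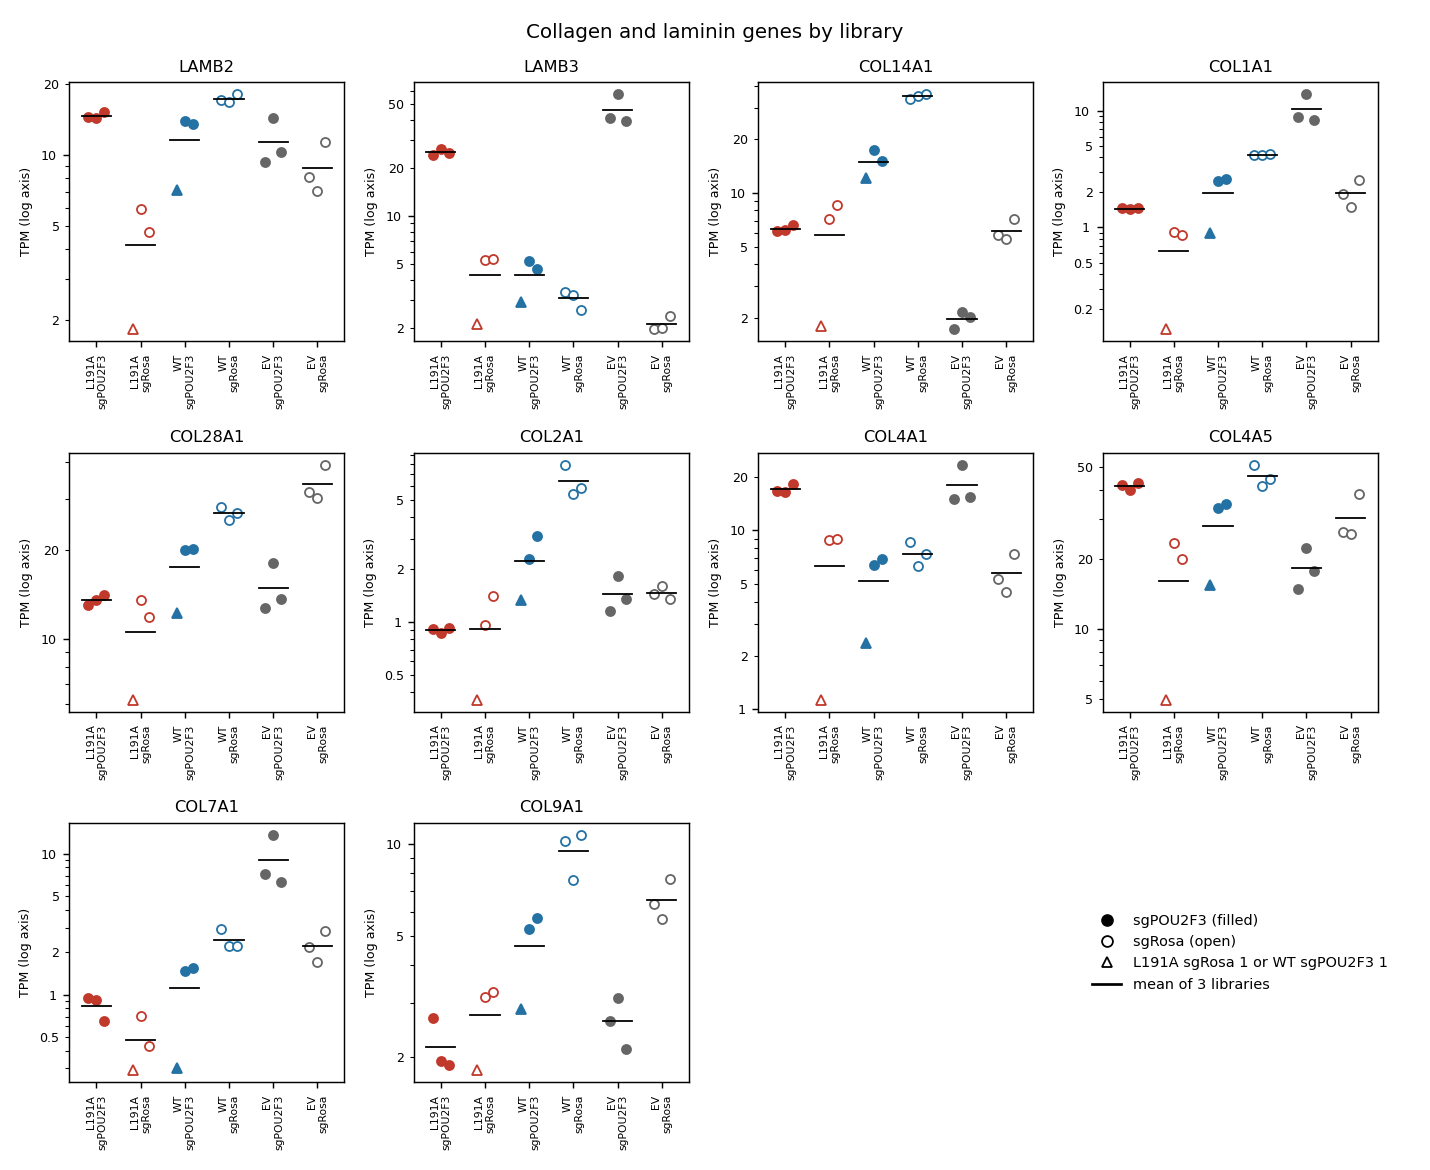
TPM (log axis) of 10 members in each of the 18 libraries, by group (sgPOU2F3 filled, sgRosa open; triangles, L191A sgRosa replicate 1 and WT sgPOU2F3 replicate 1; bars, means of 3 libraries). LAMB3 and COL4A1 are high in sgPOU2F3 libraries of the L191A and empty-vector lines, while COL1A1 and COL7A1 are high in empty-vector sgPOU2F3 libraries.

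Of 6 tested type IV collagens, 1 rose in L191A cells, 0 changed in WT cells by limma, and 1 rose in empty-vector cells. Of all tested genes 5.43% rose in L191A cells, 1.57% rose and 5.26% fell in WT cells, and 7.95% rose in empty-vector cells. The 6 genes lie in 3 head-to-head pairs, each transcribed in opposite directions from neighboring starts, and COL4A1 with COL4A2 encodes the chains of the common basement membrane network. COL4A1 (chromosome 13, 110148963 to 110307233, minus strand) had 16.6, 16.4 and 18.2 TPM in L191A sgPOU2F3 libraries, against 1.13, 8.85 and 8.90 TPM in L191A sgRosa libraries. It had 2.36, 6.41 and 6.91 TPM in WT sgPOU2F3 libraries and 8.57, 6.29 and 7.42 TPM in WT sgRosa libraries. It had 15, 23.3 and 15.4 TPM in empty-vector sgPOU2F3 libraries, against 5.33, 4.55 and 7.41 TPM in empty-vector sgRosa libraries. The guide groups did not overlap in L191A and empty-vector cells. COL4A1 rose by 1.48 ± 0.47 in empty-vector cells (limma adjusted p = 0.041), a call that ended when any 1 of those 6 libraries was left out (adjusted p of 0.0709 to 0.131). Over the 16 libraries, which keep all 6 of these, the same change had a limma adjusted p of 4.47e-06, from a smaller shared spread. In L191A cells the change of 1.61 did not pass over 18 libraries (limma adjusted p = 0.0575), and was 0.83 and passed over the 16 with the length trend removed.

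COL4A2 averaged 36.7 ± 1.2 TPM in L191A sgPOU2F3 cells and 15 ± 10.1 TPM in L191A sgRosa cells, 11.7 ± 5.9 TPM in WT sgPOU2F3 cells and 17.8 ± 1.7 TPM in WT sgRosa cells, and 39.0 ± 14.3 TPM in empty-vector sgPOU2F3 cells and 13.5 ± 2.9 TPM in empty-vector sgRosa cells (SD, n = 3 each). Its change of 1.43 ± 0.51 in empty-vector cells missed the threshold (limma adjusted p = 0.068) and over 16 libraries passed it (limma adjusted p = 1.43e-05). The ratio of COL4A1 to COL4A2 was 0.438 ± 0.042 over the 18 libraries, with a range of 0.340 to 0.517, although each gene's level spanned a wide range. The starts of the pair lie 127 bases apart, and the stretches around them, read on opposite strands, share 226 bases, printed in capitals below to show how close the divergent starts are.
COL4A1, chr13:110307108-110307407, minus strand: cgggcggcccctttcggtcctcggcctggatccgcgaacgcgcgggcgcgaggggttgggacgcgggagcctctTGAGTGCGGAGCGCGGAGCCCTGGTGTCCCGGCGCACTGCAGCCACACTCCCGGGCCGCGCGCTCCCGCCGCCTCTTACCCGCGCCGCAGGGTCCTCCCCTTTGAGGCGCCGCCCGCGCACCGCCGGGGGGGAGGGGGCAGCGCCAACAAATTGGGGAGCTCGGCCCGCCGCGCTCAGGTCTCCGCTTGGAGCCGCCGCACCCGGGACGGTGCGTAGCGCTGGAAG
COL4A2, chr13:110307034-110307333, plus strand: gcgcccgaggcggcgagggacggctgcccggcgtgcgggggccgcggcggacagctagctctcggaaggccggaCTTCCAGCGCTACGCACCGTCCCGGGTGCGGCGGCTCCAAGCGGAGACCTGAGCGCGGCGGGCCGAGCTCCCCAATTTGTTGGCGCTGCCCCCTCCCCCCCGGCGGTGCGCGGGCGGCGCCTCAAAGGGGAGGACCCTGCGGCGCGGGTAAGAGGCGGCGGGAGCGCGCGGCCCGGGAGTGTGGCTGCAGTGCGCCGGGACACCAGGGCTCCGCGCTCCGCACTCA

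The other type IV pairs, COL4A3 with COL4A4 (starts 419 bases apart, chromosome 2) and COL4A5 with COL4A6 (380 bases apart, chromosome X), encode chains of more specialized networks. COL4A5 had 41.8, 39.8 and 42.5 TPM in L191A sgPOU2F3 libraries, against 4.96, 23.5 and 20.1 TPM in L191A sgRosa libraries. It had 15.5, 33.2 and 34.7 TPM in WT sgPOU2F3 libraries and 51.2, 41.6 and 44.3 TPM in WT sgRosa libraries. It had 14.9, 22.3 and 17.9 TPM in empty-vector sgPOU2F3 libraries, against 26.2, 25.8 and 38.3 TPM in empty-vector sgRosa libraries. The sgPOU2F3 libraries were the higher ones in L191A cells and the lower ones in the other lines, with no overlap in any line. The rise of 1.54 ± 0.41 in L191A cells (limma adjusted p = 0.0368) ended without any 1 L191A sgPOU2F3 library or without L191A sgRosa replicate 1 (adjusted p of 0.068 to 0.118), and was 0.86 over 16 libraries with the length trend removed (limma adjusted p = 1.68e-06). In that fit COL4A5 also passed in empty-vector cells in the other direction, at -0.45.

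The ratio of COL4A5 to COL4A2 within a library was 1.13 ± 0.07 in L191A sgPOU2F3 cells and 1.20 ± 0.29 in L191A sgRosa cells, 2.56 ± 0.52 in WT sgPOU2F3 cells and 2.56 ± 0.11 in WT sgRosa cells, and 0.491 ± 0.101 in empty-vector sgPOU2F3 cells and 2.23 ± 0.21 in empty-vector sgRosa cells. Paired genes also kept unequal ratios: COL4A5 exceeded COL4A6 by 9.16 to 20.0 times in all 18 libraries, and COL4A3 was 0.249 to 0.665 of COL4A4. COL4A3, COL4A4 and COL4A6 passed in no line over 18 libraries.

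Of 8 tested fibrillar collagens, 2 rose in L191A cells, 2 fell in WT cells and 3 rose in empty-vector cells. Of all tested genes 5.43% rose in L191A cells, 5.26% fell in WT cells and 7.95% rose in empty-vector cells. COL1A1, the main chain of type I collagen, had 1.46, 1.43 and 1.47 TPM in L191A sgPOU2F3 libraries and 0.135, 0.913 and 0.858 TPM in L191A sgRosa libraries. It had 0.892, 2.48 and 2.59 TPM in WT sgPOU2F3 libraries and 4.15, 4.19 and 4.28 TPM in WT sgRosa libraries. It had 8.81, 13.8 and 8.28 TPM in empty-vector sgPOU2F3 libraries, against 1.93, 1.49 and 2.53 TPM in empty-vector sgRosa libraries. The 3 empty-vector sgPOU2F3 libraries were the highest of all. COL1A1 rose by 1.91 ± 0.26 there (limma adjusted p = 8.91e-05), and this change exceeded that in WT cells (WT minus empty vector, -2.76 ± 0.37, limma adjusted p = 0.00017). The difference between L191A and empty-vector cells was -1.28 over 18 libraries (limma adjusted p = 0.0522) and -1.53 over 16 (limma adjusted p = 0.000595).

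COL3A1, the chain of type III collagen, averaged 2.80 ± 0.51 TPM in L191A sgPOU2F3 cells and 2.48 ± 1.10 TPM in L191A sgRosa cells, 0.824 ± 0.122 TPM in WT sgPOU2F3 cells and 1.21 ± 0.19 TPM in WT sgRosa cells, and 3.32 ± 0.72 TPM in empty-vector sgPOU2F3 cells and 0.0917 ± 0.0680 TPM in empty-vector sgRosa cells (SD, n = 3 each). It rose by 1.97 ± 0.20 in empty-vector cells (limma adjusted p = 3.43e-06). That response exceeded those in both other lines, by differences of -1.80 ± 0.28 for L191A minus empty vector (limma adjusted p = 0.00171) and -2.25 ± 0.28 for WT minus empty vector (limma adjusted p = 9e-05), under all 20 alternatives. COL1A2, the partner of COL1A1 in type I collagen, had a change of 0.09 in empty-vector cells and rose by 0.79 in L191A cells (limma adjusted p = 0.0221), a call that ended without any 1 L191A sgPOU2F3 library (adjusted p of 0.0621 to 0.0914).

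COL24A1, a fibrillar collagen described in developing mouse bone and eye, averaged 2.72 ± 0.22 TPM in L191A sgPOU2F3 cells and 0.490 ± 0.249 TPM in L191A sgRosa cells, 1.96 ± 0.26 TPM in WT sgPOU2F3 cells and 4.48 ± 1.05 TPM in WT sgRosa cells, and 2.60 ± 0.44 TPM in empty-vector sgPOU2F3 cells and 1.16 ± 0.23 TPM in empty-vector sgRosa cells (SD, n = 3 each). It rose in L191A cells (1.33 ± 0.17, limma adjusted p = 8.06e-05) and in empty-vector cells (0.74 ± 0.17, limma adjusted p = 0.00696). It fell in WT cells, by 0.88 (limma adjusted p = 0.011), and this last call ended without WT sgPOU2F3 replicate 1 or WT sgRosa replicate 1 (adjusted p of 0.06 and 0.0736). The same call also ended with a pseudocount of 0.1, in a fit of only the groups compared and with the length trend of 18 libraries removed (-0.28). The response differed by 2.21 ± 0.24 between L191A and WT cells (limma adjusted p = 7.1e-05) and by -1.61 ± 0.24 between WT and empty-vector cells (limma adjusted p = 0.000507).

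COL2A1, the collagen of cartilage, had 0.918, 0.864 and 0.926 TPM in L191A sgPOU2F3 libraries and 0.362, 0.960 and 1.41 TPM in L191A sgRosa libraries. It had 1.35, 2.28 and 3.11 TPM in WT sgPOU2F3 libraries, against 7.91, 5.40 and 5.86 TPM in WT sgRosa libraries. It had 1.16, 1.83 and 1.35 TPM in empty-vector sgPOU2F3 libraries and 1.46, 1.62 and 1.36 TPM in empty-vector sgRosa libraries. WT sgRosa libraries were the highest, and the guide groups did not overlap in WT cells only. COL2A1 fell in WT cells by 1.21 ± 0.22 (limma adjusted p = 0.00809), or by 0.67 over 16 libraries with the length trend removed, and the call ended without WT sgRosa replicate 1 (adjusted p = 0.0595). The call also ended with a pseudocount of 0.1 and in a fit of only the groups compared.

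COL27A1, a fibrillar collagen of cartilage, was the highest member in both empty-vector groups and both WT groups. It averaged 33 ± 3.7 TPM in L191A sgPOU2F3 cells and 43.2 ± 24.6 TPM in L191A sgRosa cells, 94.9 ± 54.3 TPM in WT sgPOU2F3 cells and 254 ± 34 TPM in WT sgRosa cells, and 159 ± 66.5 TPM in empty-vector sgPOU2F3 cells and 386 ± 61 TPM in empty-vector sgRosa cells (SD, n = 3 each). Its changes on sgPOU2F3 did not pass over 18 libraries, at -0.17, -1.64 and -1.34. Over 16 libraries with the length trend removed it fell in each line, by 0.81, 0.58 and 1.08 (limma adjusted p of 0.000932, 0.0133 and 5.24e-06). Under sgRosa it was lower in L191A than in empty-vector cells by 3.33 log2 units (a change of -3.33 ± 0.50, limma adjusted p = 0.000337), under all 14 alternatives, where 31% of all tested genes were lower.

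Of 5 tested FACIT collagens, 1 rose in L191A cells, 3 fell in WT cells, and 1 rose and 2 fell in empty-vector cells. Of all tested genes 5.43% rose in L191A cells, 5.26% fell in WT cells, and 7.95% rose and 9.52% fell in empty-vector cells. COL12A1, found on collagen fibers of dense tissue, averaged 3.71 ± 0.12 TPM in L191A sgPOU2F3 cells and 1.22 ± 0.81 TPM in L191A sgRosa cells, 0.566 ± 0.218 TPM in WT sgPOU2F3 cells and 2.03 ± 0.48 TPM in WT sgRosa cells, and 2.08 ± 0.49 TPM in empty-vector sgPOU2F3 cells and 0.175 ± 0.075 TPM in empty-vector sgRosa cells (SD, n = 3 each). The rise was 1.16 ± 0.23 in L191A cells (limma adjusted p = 0.00507) and 1.38 ± 0.23 in empty-vector cells (limma adjusted p = 0.000633). In L191A cells it did not pass with the length trend of 18 libraries removed (0.52, limma adjusted p = 0.0904). The fall of 0.95 in WT cells (limma adjusted p = 0.0337) ended without WT sgPOU2F3 replicate 1 or 2 or any 1 WT sgRosa library (adjusted p of 0.0589 to 0.168), and over 16 libraries with the length trend removed (-0.37, limma adjusted p = 0.0643).

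COL14A1, which binds fiber surfaces, had 6.10, 6.19 and 6.64 TPM in L191A sgPOU2F3 libraries and 1.79, 7.21 and 8.53 TPM in L191A sgRosa libraries. It had 12.1, 17.5 and 15.2 TPM in WT sgPOU2F3 libraries, against 33.9, 35.0 and 35.9 TPM in WT sgRosa libraries. It had 1.72, 2.17 and 2.02 TPM in empty-vector sgPOU2F3 libraries, against 5.84, 5.50 and 7.13 TPM in empty-vector sgRosa libraries. The guide groups did not overlap in WT and empty-vector cells, and every WT library was above every library of the other lines. COL14A1 fell by 1.19 ± 0.33 in WT cells (limma adjusted p = 0.0444) and by 1.26 ± 0.33 in empty-vector cells (limma adjusted p = 0.0138). The first call ended without WT sgPOU2F3 replicate 1 or 2 or any 1 WT sgRosa library (adjusted p of 0.0589 to 0.227). The second ended without empty-vector sgPOU2F3 replicate 1 (limma adjusted p = 0.0583) or empty-vector sgRosa replicate 3 (limma adjusted p = 0.0661), while over 16 libraries with the length trend removed the falls were 0.68 and 1.03.

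COL9A1, a chain of the cartilage collagen type IX, had 2.68, 1.94 and 1.88 TPM in L191A sgPOU2F3 libraries and 1.81, 3.16 and 3.26 TPM in L191A sgRosa libraries. It had 2.87, 5.25 and 5.71 TPM in WT sgPOU2F3 libraries, against 10.2, 7.63 and 10.7 TPM in WT sgRosa libraries. It had 2.63, 3.13 and 2.13 TPM in empty-vector sgPOU2F3 libraries, against 6.35, 5.69 and 7.66 TPM in empty-vector sgRosa libraries. Guide groups overlapped in L191A cells alone. COL9A1 fell by 0.93 in WT cells (limma adjusted p = 0.0364) and by 1.06 ± 0.23 in empty-vector cells (limma adjusted p = 0.00512). The call in WT cells ended without WT sgPOU2F3 replicate 1 or any 1 WT sgRosa library (adjusted p of 0.0625 to 0.198) and over 16 libraries with the length trend removed (limma adjusted p = 0.0522). COL9A2 and COL9A3, its partner chains, passed in no line over 18 libraries.

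COL7A1, the anchoring fibril collagen that links laminin-332 to the tissue beneath, had 0.942, 0.919 and 0.656 TPM in L191A sgPOU2F3 libraries and 0.291, 0.703 and 0.430 TPM in L191A sgRosa libraries. It had 0.301, 1.49 and 1.56 TPM in WT sgPOU2F3 libraries and 2.91, 2.21 and 2.22 TPM in WT sgRosa libraries. It had 7.17, 13.6 and 6.31 TPM in empty-vector sgPOU2F3 libraries, against 2.17, 1.71 and 2.82 TPM in empty-vector sgRosa libraries. All L191A libraries stayed under 1 TPM, and the empty-vector sgPOU2F3 libraries were the highest. COL7A1 rose by 1.58 ± 0.27 in empty-vector cells (limma adjusted p = 0.000772), and the change differed between WT and empty-vector cells by -2.34 ± 0.38 (limma adjusted p = 0.00125), under all 20 alternatives.

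COL28A1, a collagen described around mouse nerves, had 13.0, 13.6 and 14.1 TPM in L191A sgPOU2F3 libraries and 6.19, 13.5 and 11.9 TPM in L191A sgRosa libraries. It had 12.2, 20.1 and 20.2 TPM in WT sgPOU2F3 libraries, against 28.2, 25.4 and 26.8 TPM in WT sgRosa libraries. It had 12.8, 18.2 and 13.7 TPM in empty-vector sgPOU2F3 libraries, against 31.8, 30.3 and 39.2 TPM in empty-vector sgRosa libraries. The groups overlapped in L191A cells only. COL28A1 fell by 1.14 ± 0.25 in empty-vector cells (limma adjusted p = 0.00503) and did not pass in the other lines. COL8A2, a short-chain collagen, averaged 2.69 TPM in WT sgRosa cells and 0.511 to 1.10 TPM in the other groups. Its mean reached the limit of 1 TPM only through WT sgRosa cells, so its calls against that group are not independent of the filter. COL8A2 fell by 0.87 in WT cells (limma adjusted p = 0.0411), a call that ended over 16 libraries with the length trend removed (-0.28) and without WT sgPOU2F3 replicate 1 or 2 or any 1 WT sgRosa library (adjusted p of 0.0576 to 0.227).

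Comparisons between lines under the same guide set lines with different cDNAs side by side. Each cDNA was carried by 1 stable line, so effects of the cDNA and other differences between lines cannot be told apart. These comparisons share libraries with each other and with the guide comparisons. L191A against WT cells under sgPOU2F3 had 8 members higher and 6 lower, where 7.79% of all genes were higher and 5.73% lower. Of these, LAMB3 (2.32 ± 0.26), COL12A1 (1.60 ± 0.23) and COL3A1 (1.05 ± 0.20) were higher in L191A cells under all 14 alternatives (limma adjusted p of 1.68e-05, 0.000201 and 0.00206). Of the 14 calls, 10 ended without at least 1 library, and the count was 13 without WT sgPOU2F3 replicate 1, 7 without WT sgPOU2F3 replicate 3, and 4 to 6 without any other. Over all tested genes 681 were higher and 967 lower without WT sgPOU2F3 replicate 1, and 539 and 459 without L191A sgPOU2F3 replicate 1. Over 16 libraries 10 members were higher and 11 lower (all genes, 18.5% and 18.9%), and 12 and 13 with the length trend removed (26% and 23.8%).

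L191A against empty-vector cells under sgPOU2F3 had 4 members higher and 3 lower, where 1.61% of all genes were higher and 2.17% lower. Under all 14 alternatives COL1A2 was higher in L191A cells (1.39 ± 0.19) and COL7A1 (-2.38 ± 0.27) and COL1A1 (-2.17 ± 0.26) were lower (limma adjusted p of 0.000281, 3.66e-05 and 6.19e-05). COL14A1, COL4A3, LAMB1 and COL27A1 made up the rest, and each lost its call without at least 1 library, so that 3 or 4 calls were left. The call of COL27A1, -2.16, ended without empty-vector sgPOU2F3 replicate 2 or any 1 L191A sgPOU2F3 library (adjusted p of 0.0531 to 0.115). Over 16 libraries 10 members were higher and 5 lower (8.26% and 14.6%), and 12 and 8 with the length trend removed (16.2% and 17%).

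WT against empty-vector cells under sgPOU2F3 had 4 members higher and 8 lower, where 6.68% of all genes were higher and 13.9% lower. COL14A1 (2.41 ± 0.33) and COL25A1, a membrane-bound collagen of neurons (1.97 ± 0.30), were higher in WT cells under all 14 alternatives. LAMB3 (-3.16 ± 0.26), COL7A1 (-2.24 ± 0.27), COL1A1 (-1.95 ± 0.26), COL3A1 (-1.23 ± 0.20) and COL12A1 (-0.97 ± 0.23) were lower under all of them. The limma adjusted p of these 7 lay between 4.84e-07 and 0.0075. Over 16 libraries 15 were higher and 9 lower (18.9% and 24.7%), and 18 and 11 with the length trend removed (26.5% and 28.3%).

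Under sgRosa, where the endogenous gene was left intact, 10 members were higher in WT than in empty-vector cells and 0 were lower, where 4.57% of all genes were higher and 2.63% lower. The 10 include COL8A2, whose mean reached the limit of 1 TPM only through WT sgRosa cells. COL14A1 (2.33 ± 0.33) and COL25A1 (2.03 ± 0.30) led again, followed by COL2A1 (1.56 ± 0.22), COL12A1 (1.36 ± 0.23), COL24A1 (1.33 ± 0.17), COL3A1 (1.02 ± 0.20) and COL1A2 (0.91 ± 0.19), and these 7 passed under all 14 alternatives. COL25A1 averaged 10.7 ± 0.1 TPM in WT sgRosa cells and 1.85 ± 0.22 TPM in empty-vector sgRosa cells, and 5.20 ± 1.43 TPM in WT sgPOU2F3 cells and 0.554 ± 0.151 TPM in empty-vector sgPOU2F3 cells (SD, n = 3 each). With no L191A sgRosa replicate 1 and no WT sgPOU2F3 replicate 1 in the shared spread, 24 members were higher and 2 lower (20.9% and 13.5%), and 24 and 3 with the length trend removed (22.7% and 24%). L191A against empty-vector cells under sgRosa had 4 members higher and 12 lower, where 4.95% of all genes were higher and 31% lower. COL27A1 and COL3A1 were the members that kept their call under all 14 alternatives, COL3A1 being higher in L191A cells by 1.63 ± 0.20 (limma adjusted p = 5.52e-05). Over 16 libraries the counts were 9 higher and 10 lower (9.3% and 29.9%), with the length trend also removed 14 and 9 (22.4% and 20.5%), and without empty-vector sgRosa replicate 3 they were 2 and 6 (246 and 1176 of all tested genes).

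For the response itself, 15 members differed between L191A and WT cells, all with the larger value in L191A cells, where 10.7% of all genes had a larger value in L191A cells and 0.971% a smaller one. The 16 libraries gave 16 and 0 (11.4% and 1.74%), and removing the length trend as well 13 and 1 (8.22% and 6.72%). Leaving out 1 library gave 6 calls without L191A sgPOU2F3 replicate 1, WT sgPOU2F3 replicate 1 or WT sgRosa replicate 1, and 8 or 9 without L191A sgPOU2F3 replicate 2 or 3 or WT sgRosa replicate 2 or 3. It gave 24, 26 and 27 calls without WT sgPOU2F3 replicate 3, L191A sgRosa replicate 2 and L191A sgRosa replicate 3. Of all tested genes, 4220, 6754 and 6759 were then higher and 319, 507 and 493 lower, against 414 and 18 without L191A sgPOU2F3 replicate 1. The difference of WT minus empty vector had 0 members higher and 9 lower, where 1.71% of all genes were higher and 5.27% lower. It had 1 and 14 over 16 libraries (9% and 17.7%), and 7 and 15 with the length trend removed (19.3% and 20.2%). L191A minus empty vector had 3 members higher and 2 lower, where 4.28% of all genes were higher and 1.8% lower. It had 10 and 5 over 16 libraries (15.7% and 7.53%), and 9 and 12 with the length trend removed (15.3% and 15.7%). The count was 1 or 2 without any 1 L191A sgPOU2F3 or empty-vector library, and 10 and 13 without L191A sgRosa replicate 1 and replicate 2. In these last 2 fits 1125 and 2077 of all tested genes were higher and 549 and 440 lower.

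Of the 55 members, 22 did not reach the limit of 1 TPM. None was at 0 in every library, the highest mean was 0.635 TPM, the highest value in any library was 1.39 TPM, and 13 had a mean under 0.1 TPM. No group mean of these genes reached 1 TPM, so none was left out through a single high group.

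Genes that modify, process or bind these chains were read from lists chosen with earlier results of these data known. Of 28 tested enzymes and chaperones of collagen modification and export, 9 rose and 0 fell in L191A cells, 1 rose and 4 fell in WT cells, and 8 rose and 2 fell in empty-vector cells. Of all tested genes 5.43% rose and 0.566% fell in L191A cells, 1.57% and 5.26% in WT cells, and 7.95% and 9.52% in empty-vector cells. Of 17 tested other basement membrane and fibril proteins, 7 rose and 1 fell, 1 rose and 3 fell, and 5 rose and 2 fell in the same order. Of 6 tested receptors other than integrins, 2, 0 and 1 rose and 0 fell. Median log2 changes were 0.65, -0.40 and 0.30 for the enzymes and 0.78, -0.84 and 0.04 for the basement membrane proteins in L191A, WT and empty-vector cells, beside 0.33, -0.42 and -0.13 over all genes. The counts and medians in WT cells moved with the setting. Of the enzymes 3 were higher and 13 lower in WT cells over 16 libraries, and 5 and 5 with the length trend removed, and of the basement membrane proteins 2 and 10, and 2 and 4. Over 16 libraries 5.7% of all genes were higher and 30.4% lower in WT cells. With the length trend removed, where 15% of all genes were higher and 10.4% lower in WT cells, the medians were 0.23, -0.14 and 0.43 for the enzymes and 0.48, -0.09 and 0.17 for the basement membrane proteins in L191A, WT and empty-vector cells.

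The 6 genes of these lists with the smallest p in empty-vector cells are given here, beginning with FN1, which encodes fibronectin. FN1 averaged 68.8 ± 5.6 TPM in L191A sgPOU2F3 cells and 13.1 ± 9.9 TPM in L191A sgRosa cells, 18 ± 4.7 TPM in WT sgPOU2F3 cells and 4.06 ± 0.75 TPM in WT sgRosa cells, and 104 ± 24 TPM in empty-vector sgPOU2F3 cells and 2.35 ± 0.41 TPM in empty-vector sgRosa cells (SD, n = 3 each). Its log2 changes were 2.73, 1.89 and 4.96, and each passed (limma adjusted p of 0.00278, 0.0425 and 3.71e-06). NTN4, which binds laminin gamma chains, rose by 2.88 in L191A cells and by 3.62 in empty-vector cells, and TINAGL1, a matricellular protein of basement membranes, by 2.92 in L191A cells and by 2.63 in empty-vector cells. P3H2, a prolyl hydroxylase of type IV collagen, rose by 3.0 in L191A cells and by 2.90 in empty-vector cells. LUM, a proteoglycan of collagen fibers, rose by 0.78 in L191A cells and by 2.97 in empty-vector cells, and LOXL2, a cross-linking enzyme, by 0.72 and 1.91 in those lines. In WT cells the changes of these 5 genes lay between -0.36 and 0.35 and did not pass.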

How the data were processed

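RNA from 18 cultures was sequenced as polyA libraries (TruSeq, per the labels' protocols). The authors deposited TPM values per gene, made with kallisto on hg38 per the submitters' processing notes; its version and the transcript set were not given in the sources used here. TPM sums to a fixed total in each library, so the depth behind a value is unknown and no counting error can be given. Of 19875 entries, 124 named no gene (27 dates and 97 text fragments, with 1.47 to 2.20% of the TPM of a library) and were left out.

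Log2(TPM + 1) was tested with limma 3.58.1 in R 4.3.3, with a mean-variance trend, 1 coefficient per group, all 18 libraries sharing 1 estimate of spread, and Benjamini-Hochberg adjustment over the 13073 genes averaging 1 TPM or more, within each of 11 comparisons. A gene was called at an adjusted p under 0.05. The method was also tested on simulated data. The 3 libraries of a group were separate infections of 1 stable line, so p-values measure the spread between infections, pooled over all 6 groups. The 2 libraries set apart above enter that spread in every comparison. In empty-vector cells, which hold neither, calls over all genes were 1039 higher and 1244 lower over 18 libraries, and 2492 and 4271 over 16.

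The alternatives were a pseudocount of 0.1, no filter on low values, median-ratio scaling, a replicate block, a fit of only the groups compared, 16 libraries, removal of each library's trend over log2 transcript length (lowess, span 0.3), both of these together (added after seeing the data), and leaving out each library. Removing the trend also recentered each library. Values in every library are given for members called in a guide comparison with an absolute log2 change of at least 1 and at least 5 TPM in the higher group, and for no others; 1 member is counted but not reported here by itself. The members, lists and rules were chosen with earlier results of these data known. Gene coordinates are from GENCODE on hg38, promoters from RefSeq on GRCh38.p14.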

Additional observations from a re-analysis of the deposited data

Results flagged for a closer look

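The change on sgPOU2F3 differed between lines, by limma's test of the difference itself (adjusted p under 0.05 over 13073 genes), for the members given here, in log2 units. No explanation was tested.

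For L191A minus WT, the laminin chains LAMA5, LAMB2, LAMB3, LAMC1 and LAMC3 had differences of 3.09, 2.30, 2.01, 2.70 and 1.66. The type IV chains COL4A1, COL4A3, COL4A4 and COL4A5 had 2.135, 1.68, 2.12 and 2.32. COL12A1, COL1A1, COL1A2, COL24A1 and COL2A1 had 2.11, 1.48, 0.88, 2.21 and 1.24. L191A sgRosa replicate 1 and WT sgPOU2F3 replicate 1, with low values of long transcripts, both enter this difference. Its median over the tested members was 1.34 over 18 libraries, 0.68 over the 16 others and 0.32 over the 16 with the length trend removed (all genes, 0.79, 0.28 and 0.0063). In the last of these settings COL1A1, COL1A2 and COL2A1 had 0.52, 0.09 and 0.44 and did not pass, and the others given here passed with 0.58 (COL4A1) to 1.57 (COL24A1).

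LAMB2, LAMB3 and COL24A1 passed this test under all 20 alternatives, COL12A1 under 19, COL4A3 under 18, COL4A4 under 16, LAMC3 under 14, LAMA5 and COL4A5 under 12, LAMC1 and COL2A1 under 11, COL1A1 under 10, COL4A1 under 9 and COL1A2 under 5. Leaving out L191A sgPOU2F3 replicate 1, WT sgPOU2F3 replicate 1 or WT sgRosa replicate 1 ended the calls of COL1A1, COL1A2, COL2A1, COL4A1, COL4A4, COL4A5, LAMA5, LAMC1 and LAMC3. L191A sgPOU2F3 replicate 2 or 3 did so for COL1A1, COL1A2, COL2A1, COL4A1, COL4A5, LAMA5 and LAMC1, WT sgRosa replicate 2 or 3 for COL1A1, COL1A2, COL4A1, COL4A5, LAMA5 and LAMC1, and WT sgPOU2F3 replicate 2 for COL1A2 and COL4A1. The limma adjusted p then lay between 0.0501 and 0.137.

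For WT minus empty vector, COL12A1, COL1A1, COL24A1, COL2A1 and COL3A1 had differences of -2.33, -2.76, -1.61, -1.185 and -2.25. COL7A1, LAMB3 and LAMC3 had -2.34, -3.54 and -1.69. Of these, COL2A1 passed under 10 of 20 alternatives and LAMC3 under 17, and the others under all 20. The COL2A1 call ended without empty-vector sgPOU2F3 replicate 2 or 3, any 1 empty-vector sgRosa library, WT sgPOU2F3 replicate 1 or 2, or WT sgRosa replicate 1 or 3 (limma adjusted p of 0.0546 to 0.0985). That of LAMC3 ended without empty-vector sgPOU2F3 replicate 2 or WT sgRosa replicate 1 (limma adjusted p of 0.0508 to 0.0521).

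For L191A minus empty vector, COL28A1, COL4A5 and COL4A6 had differences of 1.54, 2.22 and 1.33, and COL3A1 and LAMB3 had -1.80 and -1.52. COL3A1 passed under all 20 alternatives, COL28A1 under 14, LAMB3 under 11, COL4A5 under 10 and COL4A6 under 7. The calls of COL4A5 and COL4A6 ended without any 1 L191A sgPOU2F3 library or any 1 empty-vector library (limma adjusted p of 0.0502 to 0.144). That of COL28A1 ended without L191A sgPOU2F3 replicate 2 or 3, empty-vector sgPOU2F3 replicate 1 or 3, or empty-vector sgRosa replicate 3 (limma adjusted p of 0.0508 to 0.0689). The libraries on which the LAMB3 call rests are given with its values above. Comparisons of a line with each of the others share its libraries.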

How the results depend on the processing

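Counts of called members under limma that moved by over 1.5 times are given by comparison. In L191A cells, from 7 (710 and 74), the guide comparison gave 14 with median-ratio scaling (838 and 424) and 2 in a fit of only the groups compared (143 and 1). It gave 12 over 16 libraries (964 and 436), 12 with the length trend removed (956 and 571) and 15 with both (1324 and 929). In WT cells, from 7 (205 and 687), it gave 0 with a pseudocount of 0.1 (116 and 123), 11 with a replicate block (238 and 1208) and 1 with only the groups compared (100 and 121). There it gave 19 over 16 libraries (745 and 3971) and 11 with both (1917 and 1338). In empty-vector cells, from 11 (1039 and 1244), it gave 20 with scaling (1651 and 1800) and 20 with only the groups compared (1926 and 2959). There it gave 25 over 16 libraries (2492 and 4271), 24 with the length trend removed (2295 and 2278) and 27 with both (3762 and 3634). L191A against WT under sgPOU2F3, from 14 (1018 and 749), gave 9 with a pseudocount of 0.1 (915 and 693). It gave 22 with the length trend removed (2069 and 1997) and 25 with both (3328 and 3053). WT against empty vector under sgPOU2F3, from 12 (873 and 1818), gave 21 with scaling (1907 and 2079) and 24 over 16 libraries (2475 and 3229). It gave 26 with the length trend removed (2604 and 2750) and 29 with both (3394 and 3622). L191A against empty vector under sgPOU2F3 (7) gave 12 with scaling, 13 with only the groups compared, 15 over 16 libraries, 13 with the length trend removed and 20 with both. WT against empty vector under sgRosa, from 10 (598 and 344), gave 19 (996 and 720), 24 (2411 and 1271), 26 (2729 and 1760), 23 (1500 and 1274) and 27 (2906 and 3072) under these 5 settings. L191A against empty vector under sgRosa, from 16 (647 and 4053), gave 2 with only the groups compared (49 and 135). The difference L191A minus WT, from 15 (1404 and 127), gave 24 with the block (3742 and 289) and 4 with only the groups compared (290 and 10). WT minus empty vector, from 9 (224 and 689), gave 15 over 16 libraries (1177 and 2316), 17 with the length trend removed (1551 and 1747) and 22 with both (2475 and 2588). L191A minus empty vector, from 5 (560 and 235), gave 12 with scaling (840 and 752), 9 with the block (640 and 231) and 1 with only the groups compared (206 and 113). It gave 15 over 16 libraries (2054 and 985), 17 with the length trend removed (989 and 951) and 21 with both (1965 and 2016).

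Brackets below hold the calls over all 13073 genes, higher and lower, in a fit with the lowest and a fit with the highest count. With 1 library left out, the counts ranged from 5 to 13 in L191A cells (441 and 38 to 1324 and 98), 0 to 14 in WT cells (52 and 58 to 348 and 2512) and 9 to 10 in empty-vector cells (708 and 635 to 793 and 1019). They ranged from 4 to 13 for L191A against WT (539 and 459 to 681 and 967), 3 to 4 for L191A against empty vector (147 and 206 to 149 and 226) and 10 to 13 for WT against empty vector (599 and 1327 to 915 and 1144) under sgPOU2F3. Under sgRosa they ranged from 8 to 9 for WT (319 and 172 to 271 and 146) and 8 to 18 for L191A (246 and 1176 to 700 and 6793) against empty vector. For the differences they were 6 to 27 for L191A minus WT (396 and 22 to 6759 and 493) and 7 to 9 for WT minus empty vector (121 and 426 to 136 and 528). For L191A minus empty vector they were 1 to 13 (192 and 106 to 2077 and 440). Calls over all tested genes thus moved as well, most for L191A minus WT.

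Signs turned when the length trend was removed, here over 18 libraries and then over 16 where both are given. That removal also recentered each library. The all-gene median of L191A against empty vector under sgRosa was -0.56 over 18 libraries, 0.0034 without the trend and -0.0067 with median-ratio scaling. For L191A against empty vector under sgRosa the values became 0.54 and 0.58 for COL14A1, 0.25 for COL24A1 (18 libraries), 0.65 and 0.57 for COL25A1, 0.61 and 0.83 for COL4A1, 0.60 and 0.87 for COL4A2, 0.69 and 0.47 for COL4A3, 0.39 for COL4A4 (18 libraries), 0.69 and 0.55 for LAMA3, and 0.53 for LAMA5 (16 libraries). Over 16 libraries alone COL4A1 and COL4A2 had 0.57 and 0.60. In WT cells COL5A2 had 0.52 and 0.47, LAMA1 0.475 and 0.44, LAMB1 0.42 and 0.35, and COL1A2 0.38 (16 libraries). LAMA1 had -0.54 in L191A cells (18 libraries) and LAMA3 0.23 in empty-vector cells (16). Over 16 libraries LAMA3 had -0.33 for L191A against WT, and LAMB2 0.29 for WT against empty vector, under sgPOU2F3. The difference L191A minus WT became -0.21 for COL1A2 (18 libraries) and -1.02 and -0.83 for LAMA1. WT minus empty vector became 0.41 for COL4A5 and 0.54 for COL9A2 (16 libraries). L191A minus empty vector became -0.88 for COL4A1 and -0.90 for COL4A2 (16 libraries), -0.63 and -0.49 for LAMA3, and -0.52 and -0.55 for LAMB1. The cause was not tested.

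Whether the replicate numbers pair the libraries is not known from these values. Deviations from group means of 45 same-numbered pairs had correlations from -0.578 to 0.594 (median -0.011), and 8 of 18 libraries correlated best with their own number. The 90 pairs with different numbers ranged from -0.727 to 0.591 (median 0.00068). The block moved 3 counts by over 1.5 times, those given above. TPM carries no depth, so how far low counts limit members near 1 TPM was not tested.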

Other observations

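The summed levels of laminins and of collagens are given for each group. The 12 laminins summed to 413 ± 7.04 TPM in L191A sgPOU2F3 cells and 157 ± 104 TPM in L191A sgRosa cells, 169 ± 60 TPM in WT sgPOU2F3 cells and 296 ± 31.1 TPM in WT sgRosa cells, and 369 ± 100 TPM in empty-vector sgPOU2F3 cells and 188 ± 38.9 TPM in empty-vector sgRosa cells (SD, n = 3 each). The 43 collagens summed to 198 ± 2.18 TPM in L191A sgPOU2F3 cells and 128 ± 70.1 TPM in L191A sgRosa cells, 240 ± 107 TPM in WT sgPOU2F3 cells and 512 ± 54.8 TPM in WT sgRosa cells, and 311 ± 109 TPM in empty-vector sgPOU2F3 cells and 535 ± 88.5 TPM in empty-vector sgRosa cells. COL27A1 alone made up 16.7% of the collagen sum in L191A sgPOU2F3 cells and 33.6% in L191A sgRosa cells, 37.2% in WT sgPOU2F3 cells and 49.5% in WT sgRosa cells, and 50.2% in empty-vector sgPOU2F3 cells and 72.2% in empty-vector sgRosa cells. On sgPOU2F3 both mean sums were higher in L191A cells and lower in WT cells. These means include L191A sgRosa replicate 1 and WT sgPOU2F3 replicate 1, with low values of long transcripts. There collagens summed to 47.258 and 116.43 TPM, and laminins to 37.504 and 100.08 TPM. Collagens summed to 166.36 and 170.83 TPM in L191A sgRosa replicates 2 and 3, and to 303.33 and 299.23 TPM in WT sgPOU2F3 replicates 2 and 3. Without the low libraries both sums kept these directions, with smaller gaps. In empty-vector cells the mean sum of laminins was higher and that of collagens lower. COL27A1 itself averaged 159 TPM in empty-vector sgPOU2F3 cells and 386 TPM in empty-vector sgRosa cells. The lower collagen sum in empty-vector cells therefore does not show a fall of the other collagens. These sums were not tested.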
